A study of Homo sapiens with 96 samples.

Results

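The exon splicing events of A549 cells treated for 2 days with GSK591 and MS023 together are described here against cells kept in DMSO. A549 is an established human lung adenocarcinoma line. The co-treated cells received 1 µM GSK591, an inhibitor of the protein arginine methyltransferase PRMT5, and 1 µM MS023, an inhibitor of the Type I PRMTs. The control cells received 0.01% DMSO for 4 days, so the length of culture and the treatment cannot be told apart. Each group had 3 poly(A)-RNA seq libraries, which is 6 of the 96 samples of the series. The labels number these as replicates without saying that they came from separate cultures. A p-value here is thus not known to measure the spread between cultures. In the main test of events it rests on read numbers and on a spread between libraries that was moderated over the events of a type. A very small p can therefore come from many reads. The control and treated libraries of a group are called a, b and c, in the order in which the counts were listed. The members are all events of 4 types in the table of this comparison, 134861 of its 139307 events. They comprise 97494 cassette exons (SE), 24748 pairs of mutually exclusive exons (MXE), 7569 alternative 3′ splice sites (A3SS) and 5050 alternative 5′ splice sites (A5SS). Retained introns (RI) make up the remainder and serve only as a reference.

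Protein arginine methyltransferases place methyl groups on arginine side chains, and many of their substrates bind RNA. Type I enzymes, of which PRMT1 is the most active in most cells, make asymmetric dimethylarginine, and PRMT5 makes symmetric dimethylarginine. PRMT5 methylates Sm proteins, the ring around the spliceosomal snRNAs, and Type I enzymes methylate many hnRNP proteins. A cassette exon is either joined to both neighbours or skipped. An alternative 3′ or 5′ splice site lengthens or shortens an exon at its start or its end.

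Ψ is the share of transcripts with the inclusion form, estimated from reads for inclusion and for skipping, each divided by the effective length of its form. Reads that lie wholly within the alternative stretch count for inclusion. Reads of other transcripts that cover the stretch are not separated from these, so Ψ can exceed the share of the listed form. The inclusion form is the exon kept for SE, the longer exon for A3SS and A5SS, and the exon nearer the transcript's start for MXE. ΔΨ is the mean Ψ of the co-treated libraries minus that of the DMSO libraries. An event was tested where each of the 6 libraries had at least 10 reads, and called at an adjusted p under 0.05 within its event type. In bulk RNA, a change in every cell and a change in the share of cells that use a form cannot be told apart, nor can fewer cells of a type and less RNA per cell.

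Exon reads summed over the events ranged from 94726569 to 106446756 in the DMSO libraries and from 76942888 to 84605199 in the co-treated libraries, with a read counted for each event it touches. Within a group the Ψ of libraries correlated across events at 0.964 to 0.986, and by this measure no library stood apart. By the chi-square per degree of freedom of the counts, DMSO library b stood apart in MXE events. It gave 3.08 against library a and 3.41 against library c, while a against c gave 2.23. As a check of the labelled line, the epithelial keratin genes KRT8 and KRT18 had 17 and 4 events, all tested, and the epithelial adhesion genes CDH1 and EPCAM had 7 and 1. KRT19 had no listed event. The leukocyte genes PTPRC and CD3E and the endothelial gene PECAM1 had 0 events, and the fibroblast gene COL1A1 had 2 events that were not tested. The largest median read number of an event was 60048.5 for KRT8, 35516.5 for KRT18 and 187.5 for CDH1. It was 26.5 for both EPCAM and COL1A1, so reads did not tell these 2 genes apart. The tables hold no expression values, so absence from them is not a level of expression.

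The sequences below are those of 9 alternative stretches to which the results return, chosen to show the exons of RNA-processing and well-known switch genes beside those with large differences. Each is written 5′ to 3′ on the gene's strand from GRCh37, the genome build called hg19 in the study, with the alternative exon or stretch in capitals and its flanks in lower case.
SNHG1, 51-nt exon, chr11:62622352-62622422, minus strand: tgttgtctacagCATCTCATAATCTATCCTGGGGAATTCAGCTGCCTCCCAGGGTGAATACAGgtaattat
SUN1, 111-nt exon, chr7:889548-889678, plus strand: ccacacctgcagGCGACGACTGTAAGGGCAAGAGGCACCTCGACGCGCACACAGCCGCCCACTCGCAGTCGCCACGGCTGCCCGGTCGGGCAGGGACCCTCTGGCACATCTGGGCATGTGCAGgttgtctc
SEC31A, 39-nt exon, chr4:83752082-83752140, minus strand: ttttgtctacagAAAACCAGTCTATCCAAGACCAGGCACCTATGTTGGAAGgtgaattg
PCBP2, 39-nt exon, chr12:53861577-53861635, plus strand: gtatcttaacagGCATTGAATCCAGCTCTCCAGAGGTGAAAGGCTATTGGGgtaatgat
MBNL1, 36-nt exon, chr3:152173319-152173374, plus strand: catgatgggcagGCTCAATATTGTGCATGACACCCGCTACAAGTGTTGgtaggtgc
U2AF1, 67-nt exon, chr21:44520555-44520641, minus strand: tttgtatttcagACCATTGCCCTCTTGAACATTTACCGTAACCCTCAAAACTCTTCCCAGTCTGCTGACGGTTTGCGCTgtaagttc
MDM4, 68-nt exon, chr1:204506546-204506633, plus strand: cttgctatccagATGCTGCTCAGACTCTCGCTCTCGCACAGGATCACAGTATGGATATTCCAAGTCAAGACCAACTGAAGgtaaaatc
HNRNPC, 39-nt stretch between 5′ splice sites, chr14:21699105-21699167, minus strand: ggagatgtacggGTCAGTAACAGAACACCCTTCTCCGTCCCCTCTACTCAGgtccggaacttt
FXYD5, 154-nt stretch between 5′ splice sites, chr19:35657063-35657240, plus strand: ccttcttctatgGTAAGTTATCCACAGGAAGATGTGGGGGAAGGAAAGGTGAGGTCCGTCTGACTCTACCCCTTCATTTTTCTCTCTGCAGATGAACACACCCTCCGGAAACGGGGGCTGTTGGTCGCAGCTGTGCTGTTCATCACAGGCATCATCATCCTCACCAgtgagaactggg

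After co-treatment the inclusion of many cassette exons was lower than in DMSO, and that of fewer was higher. Of 81079 SE events tested, 9080 were called (11.2%), 7559 with lower and 1521 with higher Ψ. MXE events were called in 2161 of 23004 (9.39%), 1241 higher and 920 lower. A3SS events were called in 525 of 6145 (8.54%), 263 higher and 262 lower, and A5SS events in 834 of 4095 (20.4%), 479 higher and 355 lower. Over all 4 types 12600 of 114323 events were called (11.0%). For reference, 1345 of 3897 RI events were called (34.5%), 1150 of them with more retention. The median absolute ΔΨ among called events lay between 0.0807 for SE and 0.105 for A5SS, and 3922 called SE events differed by 0.1 or more, 3212 lower and 710 higher. The number of calls depended on the test. Limma on the log2 odds of inclusion called 3148 SE (294 higher and 2854 lower), 643 MXE (354 and 289), 42 A3SS (15 and 27) and 219 A5SS events (105 and 114) at the same threshold. The balance of A5SS calls, more often higher in the main test, was thus nearly even under limma, and that of A3SS calls turned to the lower side. The MXE count also fell to 1424 without co-treated library b and to 1411 without co-treated library c.

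**Figure D1:**
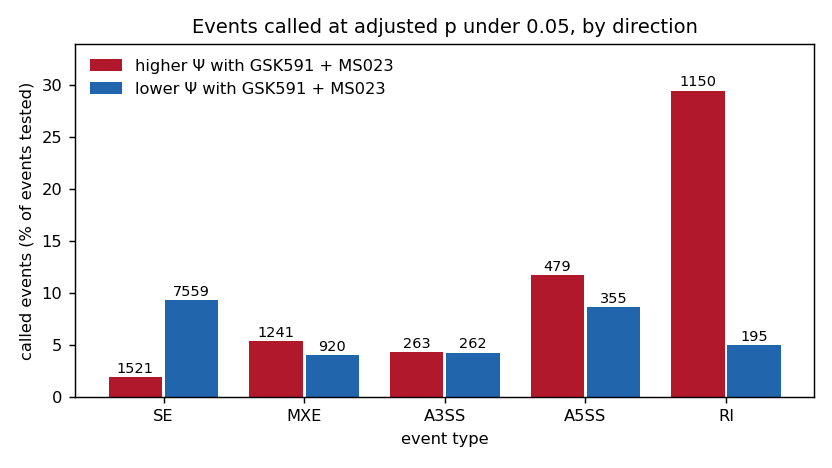
Called events as a percentage of the events tested (y axis) for each event type (x axis), with bars for events of higher and of lower Ψ after co-treatment. SE calls are mostly lower (7559 of 9080), A3SS calls are split evenly (263 and 262), and RI calls, the reference, are mostly higher (1150 of 1345).

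Over all tested SE events the median ΔΨ was -0.00325 (two-sided exact permutation test over 6 libraries, p = 0.1, the smallest that 3 against 3 libraries can give). Many of these exons are included in nearly every transcript. In the 33421 events with at least 10 reads of each form, the mean Ψ was 0.741, 0.742 and 0.741 in the DMSO libraries and 0.713, 0.713 and 0.711 in the co-treated libraries. All co-treated libraries lay below all DMSO libraries, and 69.0% of these events had a lower mean Ψ after co-treatment. The reads of each form were summed over all 6 libraries. An exon included almost fully in DMSO could thus enter through skipping reads of the co-treated libraries, which favours a lower Ψ. These values are a description of the chosen events. The median ΔΨ of the other types was nearer 0, at 0.000996 for MXE (exact permutation p = 0.5), -4.35e-05 for A3SS (exact permutation p = 0.9) and 0.000596 for A5SS (exact permutation p = 0.1). The A3SS median was above 0 under several other filters and has no stable sign. The A5SS median was 0, 1.43e-05 and 8.44e-06 without DMSO library a, b and c and 0.00104 without co-treated library a, and the SE median was -0.00211, -0.00197 and -0.00212 without co-treated library a, b and c.

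Direction varied with how far an exon was included in DMSO. Among exons with a DMSO Ψ of 0.99 to 1, 2857 were called lower and 21 higher of 45119 events. Between 0.9 and 0.99, 2447 were lower and 226 higher of 20348. Exons above these limits can hardly rise, so their direction is fixed in part by the scale. Between 0.5 and 0.9, where either direction is open, 1162 were lower and 362 higher of 5656 events, and between 0.1 and 0.5, 642 were lower and 337 higher of 3004. Below 0.1 the order turned, with 575 higher and 451 lower of 6952, and the median ΔΨ of the called events was 0.0108. Exons this low can hardly fall, so their direction too is fixed in part by the scale. The DMSO libraries that set the bins also enter ΔΨ. The share of events called was largest between 0.1 and 0.5, at 32.6%.

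**Figure D2:**
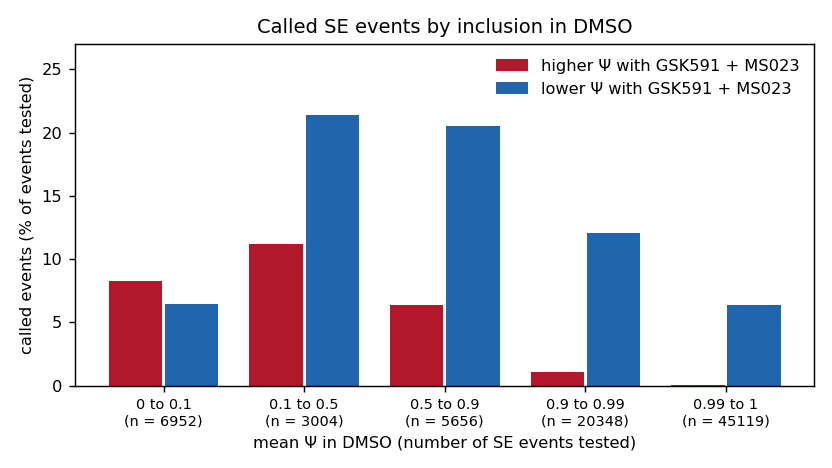
Called SE events as a percentage of the events tested (y axis), in bins of the mean Ψ in DMSO (x axis, number of events tested in brackets), with bars for higher and lower Ψ after co-treatment. Lower calls outnumber higher calls in every bin from a DMSO Ψ of 0.1 upward, and higher calls outnumber lower calls below 0.1.

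The called SE events fell on 8133 exons of 58359 tested, 6752 of them called lower only, 1335 higher only and 46 in both directions with different neighbours. An exon was set by its start and end, so overlapping versions with different edges, which share reads, count separately. By gene, 3359 genes had called exons only with lower Ψ, 545 only with higher Ψ and 508 had both. In 214 genes 5 or more exons were called. The genes with most called exons, which were picked after their values were seen, were LAMA5, a laminin chain of the basement membrane, with 14 of 42 exons called (13 lower only), the mitochondrial dehydrogenase subunit gene IDH3B with 10 of 10, the DNA glycosylase gene MUTYH with 10 of 15 and the actin crosslinker gene FLNA with 10 of 24, all lower in the latter genes. GAS5, a noncoding host of small nucleolar RNAs, had 9 of 16 exons called, all lower, and IRF3, a transcription factor of the interferon response, had 8 of 9, all lower. ADAM15, a membrane metalloprotease gene with several cassette exons, had 4 exons lower and 5 higher of 19 tested.

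Exons that fell and exons that rose differed in what the annotation says of them. Of the exons called lower, 82.7% (5587) matched a coding exon of GENCODE, against 50.2% (670) of those called higher and 74.1% of 19338 exons not called for which both forms were seen. Nonsense-mediated decay destroys mRNAs with a premature stop, and GENCODE marks some transcripts for it, here called decay transcripts. Exons of such transcripts and of no protein-coding transcript form the decay class, whether or not noncoding transcripts hold them too. This class made up 5.35% of the lower, 19.9% of the higher and 9.55% of the exons not called. Exons of the 5′ UTR made up 6.25%, 16.3% and 7.71%. These groups also differ in their inclusion in DMSO, with a median Ψ of 0.980 for the lower and 0.199 for the higher exons. Among exons with a DMSO Ψ between 0.1 and 0.9 the differences were smaller. There 66.6% of 1493 lower, 60.4% of 523 higher and 61.1% of 3754 exons not called were coding, and 7.84%, 11.7% and 10.1% were of the decay class. These shares are descriptions of the exon sets and were given no test.

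The exons that fell were set between shorter introns than the exons not called. The median upstream intron was 1391 nt for the lower, 1515 nt for the higher and 2109 nt for the exons not called, and the median downstream intron was 1319, 1678 and 2001 nt. Within a DMSO Ψ of 0.1 to 0.9 the upstream medians were 1874, 1521 and 2188 nt and the downstream medians 1804, 1736 and 2284.5 nt, so there the exons that rose had the shortest introns. The lower exons had a median length of 110 nt, the higher exons 131 nt and the exons not called 118 nt. The score of the 5′ splice site, the summed log2 ratio of base frequencies at each position among all tested exons to equal frequencies, had a median of 7.36 for the lower, 7.78 for the higher and 7.92 for the exons not called, with quartiles for the lower exons of 5.73 and 8.76. The same order held within a DMSO Ψ of 0.1 to 0.9, where the medians were 7.19, 7.84 and 7.91. The medians of the 3′ splice site score lay between 8.72 and 9.08. Of exons that lie wholly in coding sequence, a length divisible by 3, which keeps the reading frame, was found in 45.5% of 5223 lower, 57.6% of 569 higher and 47.4% of 13126 exons not called. Within a DMSO Ψ of 0.1 to 0.9 the shares were 61.7%, 62.8% and 57.2%.

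Named events were chosen by size of ΔΨ among called events with at least 50 reads in every library and no overlap between the groups, and further events were taken from gene lists by the same measure. Their size is a description, and their adjusted p-values come from the fit over all events of a type. For the events named by size, the lack of overlap was a condition of choice and not a result. It held in 17.9% of tested SE, 22.4% of MXE, 19.1% of A3SS and 27.9% of A5SS events. The largest fall belonged to SNHG1, a noncoding host gene of small nucleolar RNAs, in the 51-nt exon printed above. Its Ψ was 0.828, 0.828 and 0.848 in the DMSO libraries and 0.104, 0.127 and 0.118 in the co-treated libraries. The groups lay far apart, with a ΔΨ of -0.718 (adjusted p = 2.96e-296, 521 to 1358 reads per library). SUN1, which spans the inner nuclear membrane and links the nucleus to the cytoskeleton, lost its 111-nt coding exon. Its Ψ was 0.723, 0.734 and 0.750 in DMSO and 0.123, 0.143 and 0.104 after co-treatment (adjusted p = 6.46e-100). No co-treated library came near a DMSO library.

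RPS25, a protein of the small ribosomal subunit, had a Ψ of 0.869, 0.896 and 0.843 in DMSO and 0.261, 0.240 and 0.236 after co-treatment for a 129-nt exon at chr11:118888635-118888763 that GENCODE lists only in decay transcripts (adjusted p = 3.15e-133). All co-treated libraries were low, and reads of other transcripts over this exon may add to its inclusion. RAD52, an annealing factor of homologous recombination, had a Ψ of 0.848, 0.877 and 0.928 in DMSO and 0.236, 0.188 and 0.220 after co-treatment for the 102-nt coding exon at chr12:1023597-1023698 (adjusted p = 3.53e-20, 52 to 83 reads per library). IQCE, a protein of the primary cilium, had a Ψ of 0.643, 0.707 and 0.925 in DMSO and 0.178, 0.0582 and 0.201 after co-treatment for the 48-nt coding exon at chr7:2606750-2606797 (adjusted p = 1.38e-24). The IQCE libraries were spread more widely within each group. NPIPA1 was the remaining SE event named for a fall, with a Ψ of 1, 0.774 and 0.504 in DMSO and 0.108, 0.0848 and 0.139 after co-treatment. It belongs to a family of near-identical copies on chromosome 16, so its reads may be split between copies and its value is uncertain.

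The largest rise among SE events was in ERCC8, which acts in transcription-coupled DNA repair. A 1607-nt exon at chr5:60187864-60189470, listed in decay transcripts and in no protein-coding transcript, had a Ψ of 0.0680, 0.0511 and 0.101 in DMSO and 0.631, 0.727 and 0.689 after co-treatment. The co-treated libraries were all high, with a ΔΨ of 0.609 (adjusted p = 3.3e-93). RTN4 encodes the reticulons that shape the endoplasmic reticulum, and its 2400-nt exon at chr2:55252222-55254621 makes the long Nogo-A form. That exon had a Ψ of 0.168, 0.186 and 0.177 in DMSO and 0.729, 0.595 and 0.666 after co-treatment (adjusted p = 1.23e-23). The DMSO libraries were closely alike and the co-treated libraries were all high. SEC31A, of the outer coat of COPII transport vesicles, had a Ψ of 0.204, 0.237 and 0.202 in DMSO and 0.609, 0.652 and 0.627 after co-treatment for the 39-nt coding exon printed above (adjusted p = 4.8e-26). The groups were again well apart.

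LRIF1, a chromatin protein that binds HP1, had a Ψ of 0.276, 0.267 and 0.245 in DMSO and 0.747, 0.652 and 0.656 after co-treatment for the 1528-nt coding exon at chr1:111493910-111495437 (adjusted p = 1.18e-28). SEPT2, a septin of the cytoskeleton, had a Ψ of 0.240, 0.210 and 0.225 in DMSO and 0.795, 0.587 and 0.609 after co-treatment for a 101-nt exon of the 5′ UTR (adjusted p = 1.03e-20). In both genes co-treated library a was the highest. SLC38A6, of a family of amino acid transporters, had a Ψ of 0.308, 0.431 and 0.299 in DMSO and 1, 0.609 and 0.749 after co-treatment for a 637-nt exon of decay transcripts (adjusted p = 0.00018). Its co-treated libraries were widely spread, and limma on the log2 odds gave an adjusted p of 0.105.

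**Figure D3:**
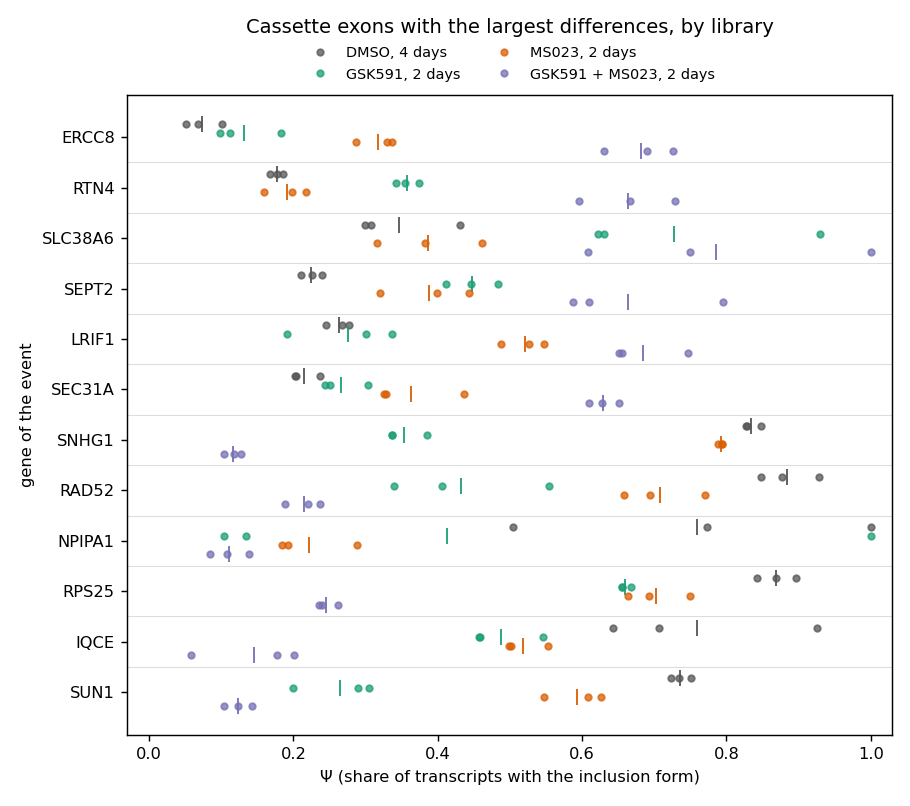
Ψ (x axis) of the 12 SE events named by size (y axis, by gene), with a point per library and a vertical line at the mean of 3 libraries for DMSO, co-treatment and each inhibitor given alone for 2 days. The DMSO and co-treated points do not overlap in any of the 12 events, which was a condition of their choice. The points of GSK591 and MS023 alone mostly lie between them.

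Among A3SS events, the largest rise was in RNF216, an E3 ubiquitin ligase. A stretch of 269 nt at chr7:5778984-5779252, listed only in decay transcripts, had a Ψ of 0.0706, 0.0702 and 0.0326 in DMSO and 0.658, 0.700 and 0.707 after co-treatment (adjusted p = 4e-67). The co-treated libraries were all high. AP5Z1, a subunit of an endosomal adaptor complex, had a mean Ψ of 0.392 ± 0.0519 in DMSO and 0.692 ± 0.0390 after co-treatment (SD, n = 3), and STAG3L4, a copy of a cohesin gene whose reads may be shared with its relatives, 0.197 ± 0.0460 and 0.543 ± 0.0965 (SD, n = 3). The A3SS named for a fall were NAGK, a sugar kinase, at 0.944 ± 0.0549 and 0.519 ± 0.140 (SD, n = 3), PRPF40B, a factor associated with U1 snRNP, at 0.663 ± 0.0439 and 0.247 ± 0.0918 (SD, n = 3), and C1orf63 at 0.824 ± 0.0446 and 0.421 ± 0.0789 (SD, n = 3). C1orf63 had the opposite order in other libraries, at 0.517 in 7-day DMSO and 0.770 after 4 days of co-treatment. Of these 6 A3SS events, only RNF216 was also called by limma on the log2 odds, which gave the others an adjusted p of 0.0579 to 0.136.

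Among A5SS events with at least 50 reads in every library, ENSA had the largest rise. It encodes an inhibitor of the PP2A phosphatase in mitosis, and a 155-nt coding stretch at chr1:150599788-150599942 had a Ψ of 0.338, 0.295 and 0.273 in DMSO and 0.744, 0.830 and 0.839 after co-treatment (adjusted p = 1.38e-26). EEF2K, the kinase of elongation factor 2, had a Ψ of 0.0256, 0.0721 and 0.0674 in DMSO and 0.525, 0.564 and 0.476 after co-treatment for a 132-nt stretch of decay transcripts (adjusted p = 1.83e-20). In both genes the groups were far apart. NT5C, a nucleotidase, rose from 0.208 ± 0.00791 to 0.630 ± 0.0455 (SD, n = 3, adjusted p = 5.57e-58). The centrosome scaffold gene PCNT had the largest fall, with a Ψ of 0.832, 0.726 and 0.798 in DMSO and 0.231, 0.303 and 0.202 after co-treatment for a 237-nt coding stretch at chr21:47851893-47852129 (adjusted p = 7.54e-18). FXYD5, a regulator of the sodium pump, had a Ψ of 0.796, 0.772 and 0.750 in DMSO and 0.300, 0.285 and 0.289 after co-treatment for the stretch printed above (adjusted p = 1.4e-125). CPNE1, a calcium-dependent lipid-binding protein, fell from 0.745 ± 0.00571 to 0.260 ± 0.0275 (SD, n = 3, adjusted p = 2.11e-105). The co-treated libraries of all 3 genes were low.

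Several events with a fall in the use of a longer exon overlap with exon skipping. The stretch between the alternative sites held a whole tested cassette exon in 107 of 262 lower A3SS events (40.8%), and that exon was itself called lower in 103 of them. For lower A5SS events it was 171 of 355 (48.2%), with the exon called lower in 162. Among higher events it was 23 of 263 and 24 of 479, and among events not called 13.8% and 22.7%. Reads in such an exon count for the longer form, so the same reads enter both events. NAGK, PRPF40B, CPNE1 and FXYD5 are of this kind, and their stretches also hold a listed retained intron. In FXYD5 the cassette exon is the 3′ part of the printed stretch, and it was called lower. The median length of the stretch was 140 nt for lower, 104 nt for higher and 47 nt for A3SS events not called, and 175, 82 and 79 nt for A5SS.

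The same holds for many MXE events, since 1452 of 2161 called events (67.2%) contain an exon called as a cassette exon, against 25.6% of those not called. In SUN1 the event sets transcripts with the 84-nt exon at chr7:889157-889240 alone against those with the 111-nt exon printed above alone. Its Ψ, the share of the former, was 0.226, 0.175 and 0.191 in DMSO and 0.829, 0.846 and 0.861 after co-treatment (adjusted p = 1.36e-29). In SNHG1 the share of an 84-nt exon against the printed 51-nt exon was 0.367, 0.398 and 0.311 in DMSO and 0.948, 0.921 and 0.931 after co-treatment (adjusted p = 1.44e-51). RTN4 moved the other way. The share of a 57-nt exon against the 2400-nt Nogo-A exon was 0.814, 0.802 and 0.815 in DMSO and 0.228, 0.427 and 0.430 after co-treatment (adjusted p = 3.09e-17). The 4th MXE event lies in C17orf61-PLSCR3, a readthrough of neighbouring genes whose reads cannot be assigned to it alone, at 0.303 ± 0.0287 and 0.749 ± 0.0944 (SD, n = 3).

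**Figure D4:**
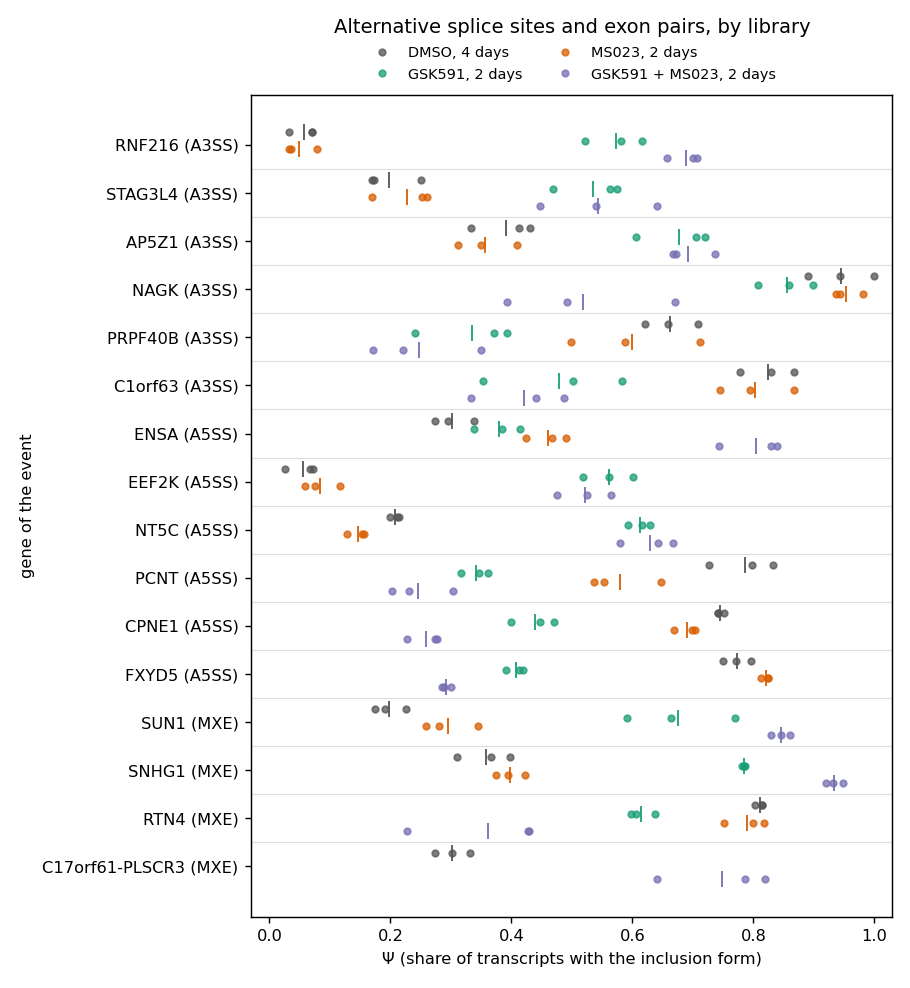
Ψ (x axis) of the 16 A3SS, A5SS and MXE events named by size (y axis, gene and event type), with a point per library and a vertical line at the mean of 3 libraries for DMSO, co-treatment and each inhibitor given alone for 2 days. DMSO and co-treated points do not overlap in any event, which was a condition of their choice. For RNF216, EEF2K, NT5C and AP5Z1 the GSK591 points lie nearer to the co-treated points and the MS023 points nearer to DMSO. C17orf61-PLSCR3 has no value for the single inhibitors.

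The libraries of the single inhibitors at 2 days allow a test without the DMSO libraries. Co-treatment differed from GSK591 alone in 2726 of 57058 SE events (4.78%), 1952 lower and 774 higher, and from MS023 alone in 7059 of 58323 (12.1%), 5436 lower and 1623 higher. Limma on the log2 odds called 0 events against GSK591, with 5936 at an unadjusted p under 0.05, where the main test had 8714, and it called 339 against MS023. For MXE the main test called 142 of 15209 events against GSK591 (0.934%) and 1324 against MS023 (8.68%). For A3SS it called 122 (2.28%) and 520 (9.45%), and for A5SS 136 (3.87%) and 821 (23.0%). Of the SE events called against DMSO and testable here, 2068 of 8566 (24.1%) differed from GSK591 alone and 4871 of 8546 (57.0%) from MS023 alone. The co-treated libraries that chose these events are also 1 arm of this test, which favours a difference, so these shares are a description.

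The 28 events named by size divided in the same tests, of which 1 arm is the co-treated libraries that chose them, so these counts are a description. Of the 27 that could be tested against each inhibitor, co-treatment differed from MS023 alone in 27 and from GSK591 alone in 16. In ERCC8 the mean Ψ was 0.131 ± 0.0456 with GSK591 and 0.318 ± 0.0269 with MS023 (SD, n = 3), against 0.682 with both (adjusted p = 9.54e-58 and 2.18e-14). In RPS25 it was 0.660 ± 0.00733 and 0.702 ± 0.0439 (SD, n = 3), against 0.246 with both (adjusted p = 4.39e-87 and 6.82e-82). Each inhibitor alone left these exons nearer to DMSO than to co-treatment. SEC31A, at 0.266 and 0.363 against 0.629, and ENSA, at 0.379 and 0.460 against 0.804, had the same order. This order is set against 4-day DMSO. In the libraries taken as 7-day DMSO the means were 0.107 for ERCC8, 0.710 for RPS25, 0.428 for SEC31A and 0.327 for ENSA. The difference between DMSO days was not tested.

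In a further set, co-treatment was not shown to differ from GSK591 alone. EEF2K had a mean Ψ of 0.561 ± 0.0415 with GSK591, 0.0837 ± 0.0299 with MS023 (SD, n = 3) and 0.522 with both (adjusted p = 0.895 against GSK591 and 1.8e-15 against MS023). NT5C had 0.613 and 0.146 against 0.630 (adjusted p = 0.872 and 5.78e-88), and RNF216 had 0.573 and 0.0488 against 0.688 (adjusted p = 0.304 and 3.07e-72). In all 3 genes the mean with GSK591 alone was nearer to co-treatment than to DMSO. SNHG1 differed from both inhibitors alone, at 0.353 ± 0.0279 with GSK591 and 0.792 ± 0.00359 with MS023 (SD, n = 3) against 0.116 with both (adjusted p = 1.77e-58 and 4.78e-282).

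A further 6 libraries, from 4 days of co-treatment and 7 days of DMSO, share none with the 2-day comparison. The 7-day DMSO libraries were identified by elimination, as the control of the 7-day inhibitor tables, and what follows rests on that. These libraries describe the called events in samples that did not choose them. Of 8381 called SE events measured there, 7628 (91.0%) had the same sign, with a median ΔΨ of -0.0232 against -0.0584 at 2 days. Among SE events not called, 61.7% had the same sign. For MXE the shares were 82.1% of called events and 55.7% of those not called, for A3SS 93.3% and 60.4%, and for A5SS 93.6% and 65.1%. SE events called higher had a median ΔΨ of 0.0834 there against 0.0888 at 2 days, and those called lower a median of -0.0383 against -0.0797. The time in culture differs in both groups of this contrast, and no test was run on it. SNHG1 was at 0.0982 after 4 days of co-treatment and 0.696 after 7 days of DMSO, and ERCC8 at 0.747 and 0.107. Of 78 named events measured there, 7 had the opposite sign. The difference there was 0.253 for C1orf63, 0.104 for BOK, 0.0686 for GEMIN7, 0.0332 for DAXX, 0.0190 for PTBP1 and 0.000293 for SRPK2, which had all fallen at 2 days, and -0.00907 for SRRM2, which had risen.

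Genes of the splicing machinery were among those whose own exons changed. In the list of SR proteins and TRA2 regulators, which bind exonic enhancers, 30 of 182 SE events were called (16.5%, against 11.2% of all SE events), 12 higher and 18 lower. For hnRNP and PTB proteins it was 57 of 321 (17.8%), 10 higher and 47 lower, for RBM, MBNL, FET and other regulators 64 of 482 (13.3%), 7 and 57, and for Sm, U1 and U2 snRNP proteins 49 of 266 (18.4%), 6 and 43. The kinases of SR proteins (CLK, SRPK and DYRK families and PRPF4B) had 7 of 82 (8.54%), 0 and 7. The median ΔΨ over all tested SE events of these lists lay between -0.00631 and -0.000741, beside -0.00325 over all SE events. No list was tested as a set. An adjusted p given below as by limma is that of limma on the log2 odds against DMSO. It is printed where it does not pass, here and in the gene list results that follow. The p-values against a single inhibitor carry no limma value, and limma called 0 SE events against GSK591 alone.

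PCBP2, an RNA-binding protein with KH domains, had a Ψ of 0.663, 0.620 and 0.622 in DMSO and 0.165, 0.163 and 0.137 after co-treatment for the 39-nt coding exon printed above, from 2893 to 4946 reads per library. This exon was called lower, with a mean of 0.273 ± 0.00571 with GSK591 and 0.645 ± 0.00938 with MS023 (SD, n = 3). HNRNPC, a binder of uridine-rich RNA, uses the printed 39-nt stretch to make its longer C2 isoform. Its Ψ was 0.419, 0.402 and 0.411 in DMSO and 0.592, 0.607 and 0.608 after co-treatment (adjusted p = 8.89e-146), and limma on the log2 odds gave an adjusted p of 0.108. The groups did not overlap and their SDs were below 0.01. PTBP1, a repressor of many exons, used the 78-nt exon at chr19:805492-805569 less in place of the next exon, at 0.610 ± 0.0473 and 0.398 ± 0.0175 (SD, n = 3, adjusted p = 2.41e-22). PCBP4 fell from 0.815 to 0.549 for a 129-nt coding exon (adjusted p = 9.88e-08, and 0.126 by limma).

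MBNL1, a regulator of developmental splicing, had a Ψ of 0.672, 0.694 and 0.576 in DMSO and 0.325, 0.257 and 0.271 after co-treatment for the printed 36-nt coding exon (adjusted p = 2.1e-19, and 0.0736 by limma). U2AF1, which recognises the AG of 3′ splice sites, had a Ψ of 0.556, 0.584 and 0.506 in DMSO and 0.265, 0.283 and 0.260 after co-treatment for the printed 67-nt coding exon (adjusted p = 2.28e-50, and 0.137 by limma). Both exons were lower in every co-treated library. RBM4, a regulator of splice site choice, rose from 0.702 ± 0.0171 to 0.950 ± 0.0161 for a 79-nt coding exon (SD, n = 3, adjusted p = 6.3e-23). ZNF207 fell from 0.895 ± 0.00668 to 0.643 ± 0.0111 for a 48-nt coding exon (SD, n = 3, adjusted p = 1.08e-77, and 0.0638 by limma), and RBM3, a cold-induced RNA-binding protein, fell from 0.806 to 0.518 for an exon of noncoding transcripts (adjusted p = 3.78e-07, and 0.105 by limma). RBM3 was at 0.816 with GSK591 and 0.535 with MS023 alone.

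SF1, the branch point binding protein, fell from 0.927 ± 0.0208 to 0.631 ± 0.0690 for a 205-nt coding exon (SD, n = 3, adjusted p = 1.17e-10). GEMIN7, which helps to load Sm proteins onto snRNAs, fell from 0.755 to 0.506 for an exon of the 5′ UTR (adjusted p = 4.48e-13, and 0.170 by limma). The Sm protein gene SNRPN rose from 0.280 ± 0.162 to 0.702 ± 0.0668 for an alternative 5′ splice site in the 5′ UTR (SD, n = 3, adjusted p = 0.000575, and 0.0734 by limma), with few reads. SREK1, an SR-related regulator, rose from 0.194 to 0.430 for a 2868-nt exon of noncoding transcripts (adjusted p = 5.22e-24, and 0.155 by limma), and SRRM2, a spliceosomal scaffold, rose from 0.121 to 0.275 for a 95-nt exon of decay transcripts (adjusted p = 9.27e-30, and 0.196 by limma). Among the kinases, CLK2 fell from 0.734 ± 0.0475 to 0.375 ± 0.0746 for an 85-nt coding exon (SD, n = 3, adjusted p = 8e-07, and 0.0799 by limma), SRPK2 fell from 1 in every DMSO library to 0.818 ± 0.0597 (SD, n = 3, adjusted p = 0.00812) and PRPF4B rose from 0.399 to 0.905 for an alternative 5′ splice site (adjusted p = 1.04e-07).

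In the list of TREX and mRNA export factors, which carry mRNA to the nuclear pore, 19 of 203 SE events were called (9.36%, against 11.2% of all SE events), 7 higher and 12 lower. ZC3H11A, a TREX-associated protein, rose from 0.377 ± 0.0364 to 0.738 ± 0.0622 at an alternative 5′ splice site of its 5′ UTR (SD, n = 3, adjusted p = 5.16e-12). The RNA helicase DDX39B rose from 0.775 ± 0.00885 to 0.920 ± 0.00870 for a 130-nt coding stretch at an alternative 3′ splice site (SD, n = 3, adjusted p = 2.68e-27, and 0.0849 by limma). ENY2, a small subunit shared by transcription and export complexes, fell from 0.812 to 0.647 at an alternative 5′ splice site (adjusted p = 4.44e-17, and 0.0981 by limma), and ZC3H18, a cap-associated factor, rose from 0.377 to 0.523 for a 72-nt coding exon (adjusted p = 1.28e-06, and 0.426 by limma).

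In the list of PRMTs and PRMT5 cofactors, 18 of 136 SE events were called (13.2%, against 11.2%), 5 higher and 13 lower. CARM1, a Type I enzyme, had a Ψ of 1, 1 and 0.991 in DMSO and 0.621, 0.803 and 0.562 after co-treatment for a 134-nt exon of decay transcripts at chr19:11030509-11030642 (adjusted p = 2.27e-22). Its inclusion reads may include those of other transcripts over this exon, so Ψ may not be the share of decay transcripts. Each inhibitor alone left it at 0.948 and 0.963, and co-treatment differed from both in the main test (adjusted p = 2.16e-10 and 1.16e-14). Limma on the log2 odds called 0 SE events against GSK591, so it did not call this difference from GSK591. PRMT7, which makes monomethylarginine, rose from 0.666 ± 0.111 to 0.982 ± 0.0153 for a 48-nt coding exon (SD, n = 3, adjusted p = 7.65e-06).

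The p53 pathway list had 14 of 206 SE events called (6.80%, against 11.2%), 1 higher and 13 lower. MDM4, an inhibitor of p53, had a Ψ of 0.673, 0.780 and 0.805 in DMSO and 0.191, 0.227 and 0.417 after co-treatment for the printed 68-nt coding exon, whose skipping makes the short MDM4-S form (adjusted p = 1.72e-07, 40 to 74 reads per library). The groups did not overlap, and the value was 0.367 ± 0.157 with GSK591 and 0.787 ± 0.106 with MS023 (SD, n = 3, adjusted p = 0.832 and 1.44e-07). The checkpoint kinase gene CHEK2 had a Ψ of 0.772, 0.774 and 0.729 in DMSO and 0.539, 0.461 and 0.381 after co-treatment for a 62-nt coding exon (adjusted p = 5.29e-05, and 0.121 by limma). With either inhibitor alone it was at 0.825 and 0.768, and co-treatment was lower than both in the main test (adjusted p = 2.13e-07 and 2.92e-05). The difference from GSK591 was not called by limma, which called 0 SE events in that comparison. The p53 regulators DAXX and RFWD2 fell from 0.941 to 0.705 (adjusted p = 7.52e-17) and from 0.924 to 0.707 (adjusted p = 0.000542, and 0.0669 by limma).

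Of SE events in apoptosis regulators 35 of 257 were called (13.6%, against 11.2%), 2 higher and 33 lower. BCL2L12, a member of the BCL2 family, fell from 0.732 ± 0.122 to 0.391 ± 0.104 for a 140-nt coding exon (SD, n = 3, adjusted p = 0.000684, and 0.128 by limma). In genes of epithelial and mesenchymal isoform switches 81 of 489 were called (16.6%, against 11.2%), 18 higher and 63 lower. ITGA6, a laminin receptor, had a Ψ of 0.606, 0.602 and 0.610 in DMSO and 0.246, 0.231 and 0.359 after co-treatment for the 130-nt exon at chr2:173366500-173366629 (adjusted p = 6.34e-14, and 0.0986 by limma). All co-treated libraries were below the tightly grouped DMSO libraries. CD44, the hyaluronan receptor, rose from 0.356 ± 0.0443 to 0.786 ± 0.0540 for a 126-nt variable exon from 22 to 45 reads per library (SD, n = 3, adjusted p = 0.00162). MPZL1 fell from 0.747 to 0.423 (adjusted p = 3.49e-65, and 0.0903 by limma) and RALGPS2 rose from 0.216 to 0.540 (adjusted p = 1.2e-08, and 0.110 by limma).

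Genes with classic mutually exclusive exons had 76 of 346 SE events called (22.0%, against 11.2%), 22 higher and 54 lower, and 42 of 126 MXE events (33.3%, against 9.39% of all MXE events), 20 higher and 22 lower. The actin-binding tropomyosin gene TPM1 had a Ψ of 0.849, 0.835 and 0.817 in DMSO and 0.512, 0.527 and 0.492 after co-treatment for the 76-nt coding exon at chr15:63353397-63353472 (adjusted p = 1.73e-66, and 0.0617 by limma). NDE1, a dynein regulator, rose from 0.493 ± 0.0806 to 0.874 ± 0.0914 for a 126-nt coding exon (SD, n = 3, adjusted p = 6.93e-08, and 0.0514 by limma). DNM1, a dynamin, fell from 0.640 to 0.281 at an alternative 3′ splice site whose stretch holds a cassette exon called lower (adjusted p = 1.26e-30, and 0.0871 by limma).

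DNA repair genes had 126 of 1068 SE events called (11.8%, against 11.2%), 14 higher and 112 lower. A further RAD52 event, with a longer version of the exon above, fell from 0.795 ± 0.0740 to 0.122 ± 0.0622 (SD, n = 3, adjusted p = 4.44e-15). Its skipping reads were the same as those of the RAD52 event above in every library, so it is not a separate result. ERCC8, also of this list, rose as described above. FANCL, the ubiquitin ligase subunit of the Fanconi anaemia pathway, had a Ψ of 0.750, 0.757 and 0.690 in DMSO and 0.251, 0.238 and 0.263 after co-treatment for a 46-nt coding exon (adjusted p = 6.96e-07, 22 to 64 reads per library). The FANCL groups did not overlap, and co-treatment was not shown to differ from GSK591 alone (adjusted p = 0.245).

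Mitosis and cell division genes had 103 of 888 SE events called (11.6%, against 11.2%), 18 higher and 85 lower. KIF23, a kinesin of the central spindle, had a Ψ of 0.829, 0.796 and 0.814 in DMSO and 0.296, 0.323 and 0.348 after co-treatment for the 79-nt coding exon at chr15:69738625-69738703 (adjusted p = 1.06e-57). KNTC1, of the complex that recruits dynein to kinetochores, had a Ψ of 1 in each DMSO library and 0.617, 0.563 and 0.572 after co-treatment for a 208-nt coding exon (adjusted p = 2.57e-12). Its inclusion reads were 209 to 231 per library in DMSO and 27 to 37 after co-treatment, beside 7 to 12 skipping reads there. It has no value in 7-day DMSO. All co-treated libraries of both genes were low. The spindle pole protein gene NUMA1 fell from 0.796 ± 0.102 to 0.291 ± 0.0490 for an exon of the 5′ UTR (SD, n = 3, adjusted p = 3.93e-05, 27 to 39 reads per library). The cohesin regulator PDS5B fell from 0.849 ± 0.0210 to 0.461 ± 0.0387 for a 108-nt coding exon (SD, n = 3, adjusted p = 2.33e-10).

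Nonsense-mediated decay and exon junction factors had 29 of 258 SE events called (11.2%), 3 higher and 26 lower, a share equal to that of all SE events. SMG1, the kinase of UPF1, fell from 0.466 to 0.231 for a 58-nt exon (adjusted p = 2.31e-06, and 0.180 by limma), but near-identical copies of this gene make its reads uncertain. ACIN1, an exon junction protein, fell from 0.443 ± 0.0421 to 0.276 ± 0.00158 for a 62-nt exon (SD, n = 3, adjusted p = 0.000829, and 0.334 by limma).

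The remaining 10 events named by the rule were called with all libraries but lost the call without at least 1 of them, so they are given here with that limit. SRRM1, a splicing coactivator, was at a ΔΨ of 0.0994 with an adjusted p of 0.104 without co-treated library a. TRA2A, an SR-like splicing activator, was at 0.253, with an adjusted p of 0.288 without DMSO library c and 0.117 without co-treated library b. HIPK3, a nuclear kinase, was at -0.250 and lost the call without any of the 6 libraries (adjusted p of 0.0572 to 0.152). PRMT1 was at 0.252 with an adjusted p of 0.0967 without co-treated library a, and PRMT3 at -0.194 with 0.104 to 0.234 without DMSO library c or any co-treated library. The initiator caspase gene CASP8 was at -0.274, with 0.0803 without DMSO library b and 0.0773 without co-treated library a. BCL2L13 was at -0.272, with 0.146 without DMSO library b and 0.420 without co-treated library c, and BOK, also of the BCL2 family, at -0.278 with 0.0985 without co-treated library c. The decay factor UPF3A was at -0.173 with overlapping groups, and its adjusted p was 0.0503 to 0.0676 without DMSO library b or c or co-treated library a or c. The decapping enzyme DCP2 was at -0.154, with 0.0707 to 0.156 without DMSO library c or co-treated library a or b. By limma with all libraries, the adjusted p was 0.594 for SRRM1, 0.223 for TRA2A, 0.104 for HIPK3, 0.0802 for PRMT1, 0.203 for CASP8, 0.225 for BCL2L13, 0.104 for BOK, 0.0840 for UPF3A and 0.0766 for DCP2.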

How the data were processed

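Per the submitters' processing notes, reads passed through Trim Galore 0.6.5 and STAR 2.4.2a with hg19 as the build, and the authors then counted splicing events with rMATS. The deposited values are read counts per library for inclusion and for skipping, which include reads within the alternative stretch and are not normalized, with a Ψ fraction per library. The Ψ recomputed here lay within 0.0005 of the deposited one. The authors' own tests and differences were not used.

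Events with at least 10 reads in every library were fitted with a quasi-binomial model, its dispersion moderated by limma (3.58.1, R 4.3.3) and held at 1 or above, with an F test and Benjamini-Hochberg adjustment within the event type. Events with a form absent from all 6 libraries could not be fitted, and residual degrees of freedom were counted from groups holding both forms. This was chosen after seeing the data. The columns name no replicate. Counts of libraries within a group differed by more than sampling noise (chi-square per degree of freedom of 1.95 to 3.41), so none was taken for a duplicate. The largest values were those of DMSO library b in MXE events. Exons were matched to GENCODE on GRCh37. In 99.8% of tested exons AG preceded and GT or GC followed.

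The script was tested on simulated data. Named events were the largest ΔΨ among called events with 50 reads in every library and no overlap between groups (6 higher and 6 lower SE, 3 and 3 A3SS, 3 and 3 A5SS, 4 MXE, 1 per gene), and up to 4 per gene list with 20 reads. A named event of the DNA repair list is not reported here. The members and the 14 gene lists were chosen with earlier results of these data known. Alternatives were other read minimums, limma on log2 odds with 0.5 added to each count, joint adjustment, 1 event per segment, no length correction, 4 residual degrees of freedom throughout, 10 reads of each form, and leaving out each library. Counting error alone is not separated from library spread, and with 3 libraries per group the smallest exact permutation p is 0.1.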

Additional observations from a re-analysis of the deposited data

Results flagged for a closer look

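The A3SS event of C1orf63 moved in opposite directions in the 2 sets of libraries. Its Ψ was lower after 2 days of co-treatment than in 4-day DMSO, by -0.404 (3 libraries per group, none overlapping), and higher after 4 days of co-treatment than in 7-day DMSO, by 0.253. The mean in DMSO was 0.824 at 4 days and 0.517 at 7 days, and with co-treatment 0.421 at 2 days and 0.770 at 4 days. The 7-day DMSO libraries were identified by elimination. The difference between the contrasts was not tested.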

How the results depend on the processing

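The other read minimums, joint adjustment, 1 event per segment and 10 reads of each form gave 7154 to 9291 SE, 1457 to 2234 MXE, 482 to 548 A3SS and 738 to 836 A5SS events. A total of 4 residual degrees of freedom for every event gave 11180 SE, 1870 MXE, 553 A3SS, 843 A5SS and 1354 RI events, 3196 SE events against GSK591 and 7892 against MS023. Limma on the log2 odds called 3148 SE, 643 MXE, 42 A3SS, 219 A5SS and 858 RI events, and 0 and 339 SE events against GSK591 and MS023 (unadjusted p under 0.05 in 5936 and 10364). Leaving out 1 library gave 7163 to 7767 SE, 1411 to 1887 MXE, 418 to 437 A3SS, 679 to 734 A5SS and 1126 to 1256 RI events, and 1952 to 2228 and 5660 to 6041 SE events against GSK591 and MS023. The median ΔΨ of SE was -0.00185 without length correction, -0.0106 with 10 reads of each form and -0.00337 to -0.00197 without 1 library. That of A3SS was 3.6e-05 with no filter beyond 1 read, 8.1e-05 with 1 event per segment, 0.000547 with 10 reads of each form and -0.000102 to 8.7e-05 without 1 library. That of A5SS was 0.000347 without length correction, 0.00102 with no filter beyond 1 read, 0.00258 with 10 reads of each form and 0 to 0.00104 without 1 library, and that of MXE 0 to 0.00147 without 1 library. The causes were not tested. Of 82 named events none changed direction, 42 stayed called by limma and 40 did not, 10 lost the call without 1 library or more, and HIPK3 also lost it with no filter beyond 1 read. No paired analysis was possible because the columns carry no replicate numbers. An edgeR alternative was planned and not run, because the deposited cells hold several counts each.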
